A study of Mus musculus with 4 samples.

Results

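The interferon response genes described here are 39 genes that cells switch on after interferon reaches them, among 31044 genes named on the array. Members were chosen by gene name, from the gene names carried by the non-control probes. They comprise 26 genes mainly induced by type I interferon and 13 counted as interferon gamma targets, measured by 52 probes. RNA from mouse lung was measured on 4 Agilent 1-colour arrays, each with RNA pooled from 4 samples. The groups were challenged lungs labelled Pla2g3-/- (KO-labelled), challenged lungs labelled Pla2g3+/+ (WT-labelled), KO-labelled controls and WT-labelled controls, with 1 array each. Pla2g3 encodes a secreted phospholipase A2. Per the labels, mice were sensitised on days 0 and 14 by intraperitoneal ovalbumin, 10 µg mixed with 1.3 mg of alum in a saline volume of 0.2 ml. Aerosol of ovalbumin at 1% was given on days 26, 27 and 28, each time for 30 min, and the lungs were collected 48 h later. This protocol stands on every sample, and the sources used here give neither the treatment of the controls nor the strain, age, sex or deleted stretch of the gene. The question was how lung expression differs after antigen challenge and between the genotypes.

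Type I interferons signal through their own receptor to a complex that holds Stat2 and Irf9 and binds interferon-stimulated response elements (ISRE) in antiviral genes. Interferon gamma, made mainly by T cells and natural killer cells, acts through a separate receptor and gamma-activated sites (GAS) in its target genes, and it induces guanylate-binding proteins, immunity-related GTPases, antigen-processing genes and the chemokines Cxcl9, Cxcl10 and Cxcl11. The separation is partial, and many targets, Cxcl10 among them, answer to both. In allergic airway inflammation the type 2 cytokines dominate, and interferon gamma is known as an opposing signal.

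Promoters of 30 of the 39 members were found in RefSeq (GRCm38.p6), each from 250 bases before to 50 bases after the start site. Of these, 14 (46.7%) held an ISRE-like match on either strand (GAAA, any 2 bases, then GAAA, which reads TTTC, any 2 bases, then TTTC on the other strand), against 3.99% of 27025 genes with a promoter. The share was 45% (9 of 20) of type I genes and 50% (5 of 10) of interferon gamma targets. A GAS-like match, TTCNNNGAA, which reads the same on both strands, was in 6 of 30 (20.0%), against 9.55% of all genes. It was in 3 of 20 type I genes and 3 of 10 interferon gamma targets. A set of 5 promoters is printed 5′ to 3′ on the strand of the gene, with ISRE-like matches in capitals: Cxcl10, Cxcl9, Gbp2 and Slfn4 because they had the large differences described below, and Isg15 as a type I target with small ones. That of Cxcl10 lies at chr5:92348840-92349139 (minus strand), that of Cxcl9 at chr5:92328030-92328329 (minus), that of Gbp2 at chr3:142620413-142620712 (plus), that of Isg15 at chr4:156200769-156201068 (minus) and that of Slfn4 at chr11:83174936-83175235 (plus).
Cxcl10: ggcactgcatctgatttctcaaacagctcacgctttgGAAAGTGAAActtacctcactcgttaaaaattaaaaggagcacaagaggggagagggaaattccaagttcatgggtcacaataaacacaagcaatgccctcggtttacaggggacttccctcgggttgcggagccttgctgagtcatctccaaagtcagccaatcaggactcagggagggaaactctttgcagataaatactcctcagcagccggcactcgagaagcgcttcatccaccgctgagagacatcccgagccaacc
Cxcl9: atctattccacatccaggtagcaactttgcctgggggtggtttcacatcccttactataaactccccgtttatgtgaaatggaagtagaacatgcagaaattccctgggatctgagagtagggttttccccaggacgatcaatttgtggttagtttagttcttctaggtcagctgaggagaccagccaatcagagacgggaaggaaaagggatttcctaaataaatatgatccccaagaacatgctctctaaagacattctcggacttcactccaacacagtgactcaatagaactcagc
Gbp2: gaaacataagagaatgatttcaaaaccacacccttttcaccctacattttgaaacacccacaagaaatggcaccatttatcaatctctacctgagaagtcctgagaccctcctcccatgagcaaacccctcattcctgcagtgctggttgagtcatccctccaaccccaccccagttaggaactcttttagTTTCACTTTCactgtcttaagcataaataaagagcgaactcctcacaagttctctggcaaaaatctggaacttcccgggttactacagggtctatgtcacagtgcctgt
Isg15: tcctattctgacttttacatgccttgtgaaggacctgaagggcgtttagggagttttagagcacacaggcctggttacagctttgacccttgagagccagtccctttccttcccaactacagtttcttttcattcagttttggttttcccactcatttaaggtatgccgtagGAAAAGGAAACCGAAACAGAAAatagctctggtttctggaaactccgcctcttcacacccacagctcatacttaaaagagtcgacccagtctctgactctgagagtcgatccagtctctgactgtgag
Slfn4: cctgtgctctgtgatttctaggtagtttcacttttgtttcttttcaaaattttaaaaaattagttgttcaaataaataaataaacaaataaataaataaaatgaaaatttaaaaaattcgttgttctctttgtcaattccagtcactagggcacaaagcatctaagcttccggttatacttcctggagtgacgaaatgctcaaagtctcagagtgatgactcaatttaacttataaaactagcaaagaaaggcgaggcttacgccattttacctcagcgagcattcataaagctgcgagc
Cxcl10 had a single match, from -213 to -204 relative to the start site, and Gbp2 a single match from -59 to -50. Isg15 had 3 matches that overlap one another between -78 and -57. The type I genes Ifit1, Ifit3 and Oas1a and the interferon gamma targets Gbp3 and Irgm1 had 2 matches each. Neither motif was found in the windows of Cxcl9 and Slfn4, which says only that these letters are not in those 300 bases. Mx1, Mx2, Oas2, Usp18, Dhx58, Zbp1, Gbp4, Iigp1 and Cxcl11 were not among the promoters used.

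The values came from 2 sources, the authors' value table and the scanner files, and they were analysed apart because columns of the same name correlated no better (Pearson r 0.915 to 0.923 over probes) than columns of different names (0.915 to 0.922). Levels are log2 values with the 75th percentile of each array at 0. A gene was represented by its brightest probe, and differences were counted at 2-fold or more where 1 or more of the arrays compared had the gene above background. With 1 array per group a difference between 2 arrays has no replicate check and no p-value, and an array of pooled RNA gives no spread between animals. In the scanner files the error from the spots alone was 0.20 on the log2 scale (median over members) for a difference between 2 arrays. The table gives no such error, but Igtp and Tap1, printed as 10 spots each, had an SD over spots of 0.054 to 0.069 in the table and 0.044 to 0.10 in the scanner files. All 39 members were above background on all 4 arrays of the table, and in the scanner files all but Slfn1 in the KO-labelled control were. Lung markers differed between the sources, lower in the scanner files for some cell types and higher for others. Both sources have the 75th percentile of each array at 0, and the reason for these differences was not tested. The median level was -4.21 to -3.29 in the scanner files and 3.04 to 3.25 in the table for 17 endothelial genes, and 0.57 to 1.62 and 4.18 to 4.43 for 18 alveolar genes. It was higher in the scanner files for 13 club cell genes (6.93 to 7.26, against 3.88 to 4.22) and for 14 ciliated cell genes (1.32 to 1.74, against -0.43 to -0.29). Pla2g3 was higher in KO-labelled arrays in both sources, at 1.07 and 0.14 in the KO-labelled challenged and control arrays against -2.83 and -3.05 in the WT-labelled challenged and control arrays of the scanner files. Where the Pla2g3 probe lies relative to the deleted stretch is not known here, so these levels cannot check the labels. Every direction between genotypes rests on the labels as given and would be reversed if they had been exchanged, which was not tested.

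In the authors' value table the type I genes hardly differed after antigen challenge, while the chemokines Cxcl9 and Cxcl10 were higher. None of the 26 type I genes reached 2-fold in the KO-labelled pair or in the WT-labelled pair. Over all 39 members, 2 differed by at least 2-fold in the KO-labelled pair, against 4.62% of 25042 genes (3.27% higher), and 1 in the WT-labelled pair, against 3.45% of 25630 genes (2.36% higher). Cxcl9, an attractant for activated T cells, had log2 levels of -1.78 (KO-labelled challenged), 0.18 (WT-labelled challenged), -3.83 (KO-labelled control) and -1.09 (WT-labelled control). It was 4.14-fold higher after challenge in the KO-labelled pair and 2.41-fold higher in the WT-labelled pair. Cxcl10, which acts on the same receptor, had levels of -0.15, 0.91, -1.68 and 0.11 on the same arrays in that order. It was 2.89-fold higher after challenge in the KO-labelled pair and 1.74-fold higher in the WT-labelled pair. The WT-labelled value rests on this probe: the other Cxcl10 probe, above background in the table on the WT-labelled arrays alone, differed by -0.02 in that pair. For both chemokines the WT-labelled challenged array was highest and the KO-labelled control lowest. Cxcl11, the third ligand of that receptor, lay between 5.62 and 5.81 on all 4 arrays by its brighter probe. In bulk RNA, fewer cells of a type and less RNA per cell cannot be told apart.

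The rest of the table's members stayed within 2-fold after challenge. Among type I genes, 5 of 26 were above 0 in the KO-labelled pair (median log2 difference -0.10) and 7 of 26 in the WT-labelled pair (median -0.08), against 52.8% and 52.3% of all genes. The differences ran from -0.41 for Ifit3, which binds viral RNA together with its relatives, to 0.68 for the antiviral GTPase Mx1 in the KO-labelled pair. In the WT-labelled pair they ran from -0.40 for Rsad2 (viperin, which blocks viral replication) to 0.84 for Xaf1, a promoter of cell death. Isg15, a ubiquitin-like protein attached to others during the antiviral response, had levels of 2.13, 2.02, 2.37 and 2.13 in the order given above, a range well under 2-fold. The interferon gamma targets other than Cxcl9 and Cxcl10 lay between -0.30 (Gbp4) and 0.14 (Cxcl11) in the KO-labelled pair and between -0.17 (Gbp4) and 0.23 (Gbp3) in the WT-labelled pair.

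**Figure D1:**
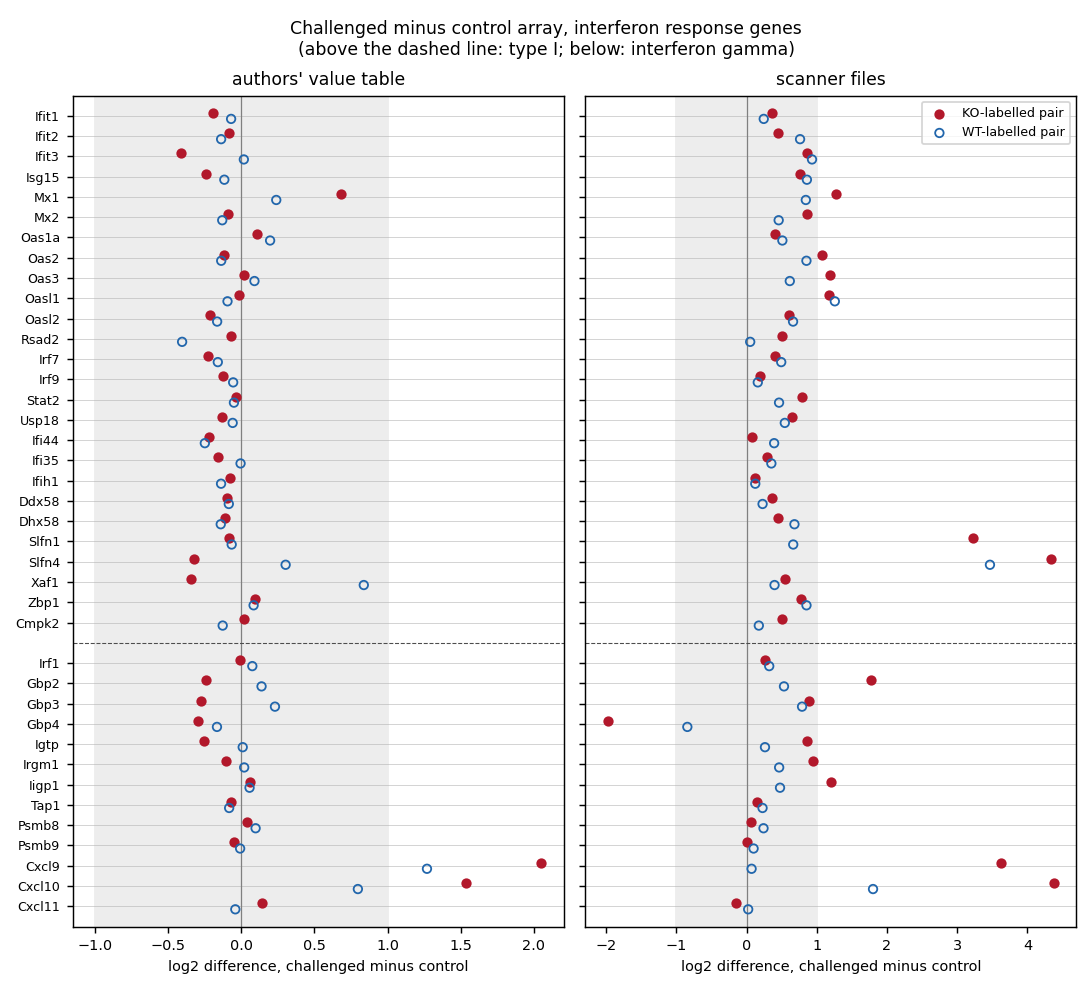
Log2 difference, challenged minus control array, of each of the 39 members in the authors' value table (left) and the scanner files (right). Filled red points are the KO-labelled pair, open blue points the WT-labelled pair, and the grey band marks differences under 2-fold; each point is a difference of 2 arrays with no error bar. In the scanner files all 26 type I genes (above the dashed line) lie right of 0 in both pairs, and in the table most lie close to 0 or left of it. Slfn1 in the KO-labelled pair of the scanner files is drawn at its measured value although its control was not well above background.

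In the scanner files all 26 type I genes were higher on the challenged array in both pairs, most of them by less than 2-fold. The share of all genes above 0 was 42.2% in the KO-labelled pair and 45.7% in the WT-labelled pair. The median difference of the type I genes was 0.57 in the KO-labelled pair and 0.53 in the WT-labelled pair, against -0.06 and -0.03 for all genes. All 26 also lay above 0 with quantile normalization, with the median of detected probes and with normexp background correction, and with probes averaged per gene in the WT-labelled pair, where the KO-labelled pair gave 25. Among all 39 members, 11 differed by at least 2-fold in the KO-labelled pair (10 higher and 1 lower), against 8.73% of 25484 genes (4.38% higher, 4.35% lower). In the WT-labelled pair 3 did, all of them higher, against 4.41% of 25820 genes (2.39% higher). The plot of challenge differences shows these genes outside the grey band.

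Antiviral effectors made up 15 of the members. Of these, 4 were at least 2-fold higher in the KO-labelled pair and 1 in the WT-labelled pair, against 4.38% and 2.39% of all genes. The oligoadenylate synthetases make the messenger that activates RNase L, which degrades RNA. Oas2 had scanner log2 levels of 3.20 (KO-labelled challenged), 3.72 (WT-labelled challenged), 2.13 (KO-labelled control) and 2.87 (WT-labelled control), and was 2.10-fold higher after challenge in the KO-labelled pair and 1.80-fold higher in the WT-labelled pair. Oas3 had -2.53, -2.16, -3.72 and -2.77 on the same arrays (2.28-fold and 1.53-fold higher in the KO-labelled and WT-labelled pairs). With normexp background correction the KO-labelled difference of Oas3 was 0.97, just under 2-fold. For both genes the WT-labelled challenged array was highest and the KO-labelled control lowest. Oasl1, a synthetase-like protein without that enzyme activity that restrains translation of Irf7, had 1.89, 1.41, 0.72 and 0.16, with differences of 1.17 in the KO-labelled pair and 1.26 in the WT-labelled pair. Both of its challenged arrays lay above both control arrays. Mx1 had 0.74, 0.93, -0.52 and 0.09, and differed by 1.27 in the KO-labelled pair and 0.84 in the WT-labelled pair. Isg15, whose promoter holds the 3 overlapping matches, had 3.99, 4.41, 3.22 and 3.55 and stayed under 2-fold, with differences of 0.77 and 0.86 in the KO-labelled and WT-labelled pairs. The other antiviral effectors lay between 0.08 (Ifi44) and 0.86 (Mx2 and Ifit3) in the KO-labelled pair and between 0.05 (Rsad2) and 0.93 (Ifit3) in the WT-labelled pair.

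Among regulators and sensors, Irf7, which amplifies type I interferon production, Irf9 and Stat2, which form the ISRE-binding complex, and Irf1, an early target of interferon gamma, had scanner differences of 0.19 to 0.78 in the KO-labelled pair and 0.16 to 0.49 in the WT-labelled pair. Usp18, which removes Isg15 from proteins and dampens the type I receptor, was higher by 0.64 and 0.54 in the KO-labelled and WT-labelled pairs. The sensors of foreign RNA Ifih1 (MDA5), Ddx58 (RIG-I) and Dhx58, with the nucleic acid sensor Zbp1, lay between 0.12 and 0.78 in the KO-labelled pair and between 0.12 and 0.85 in the WT-labelled pair. By their brightest probes, none of these 9 genes reached 2-fold in either pair. The second probe of Zbp1 did in both, with differences of 1.17 in the KO-labelled pair and 1.13 in the WT-labelled pair.

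Members of the Schlafen family regulate immune cell growth in the mouse. Slfn4, with the largest scanner difference of the 26 type I genes in both pairs, had log2 levels of -1.47 (KO-labelled challenged), -3.67 (WT-labelled challenged), -5.81 (KO-labelled control) and -7.14 (WT-labelled control). It was 20.2-fold higher after challenge in the KO-labelled pair and 11.0-fold higher in the WT-labelled pair, and both challenged arrays lay above both controls. With normexp background correction its log2 differences were smaller, at 3.13 in place of 4.34 in the KO-labelled pair and 1.67 in place of 3.47 in the WT-labelled pair. Slfn1 had -4.88 and -6.83 in the KO-labelled and WT-labelled challenged arrays, and the WT-labelled control had -7.49. On the array of the KO-labelled controls it was not well above background, so it was at least 7.08-fold higher after challenge in the KO-labelled pair, taken against the lowest signal well above background on that array. This call ended with normexp background correction, where the log2 difference was 0.90, under 2-fold. In the WT-labelled pair it was 1.58-fold higher. In the value table Slfn4 lay between -3.75 and -3.14 and Slfn1 between -5.05 and -4.26, with no 2-fold difference between any pair. Neutrophil markers differed in the scanner files as well. Of 17, 10 were at least 2-fold higher and 1 lower in the KO-labelled pair (median difference 2.65), against 4.38% and 4.35% of all genes. In the WT-labelled pair 8 were higher (median 0.93), against 2.39% of all genes. The summed linear level of the 17 markers was 317.1 and 278.5 in the KO-labelled and WT-labelled challenged arrays. It was 232.3 and 239.1 in the KO-labelled and WT-labelled controls, and none of the 17 was at background on all arrays. Their part in the Slfn4 and Slfn1 differences was not tested.

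Of the 13 interferon gamma targets in the scanner values, 4 were at least 2-fold higher and 1 lower in the KO-labelled pair (median 0.85). In the WT-labelled pair 1 was higher (median 0.26). The shares of all genes were 4.38% higher and 4.35% lower in the KO-labelled pair, and 2.39% higher in the WT-labelled pair. Cxcl10 had log2 levels of 2.09 (KO-labelled challenged), -0.04 (WT-labelled challenged), -2.29 (KO-labelled control) and -1.84 (WT-labelled control), and was 20.8-fold higher after challenge in the KO-labelled pair and 3.48-fold higher in the WT-labelled pair. Cxcl9 had -1.82, -4.58, -5.44 and -4.65 on the same arrays. It was 12.3-fold higher in the KO-labelled pair, while the WT-labelled pair differed by 0.07 on the log2 scale, less than the spot error. With normexp background correction the KO-labelled difference of Cxcl9 was 2.65 in place of 3.62. The KO-labelled challenged array stood above the other 3 for both chemokines, whereas in the table the WT-labelled challenged array did. The median level of 15 monocyte and macrophage markers was highest on the same arrays, at 1.17, 0.04, 0.33 and 0.10 in the scanner files and 1.19, 1.40, 0.42 and 0.85 in the table, in the order KO-labelled challenged, WT-labelled challenged, KO-labelled control and WT-labelled control. Their summed linear level was 167.6, 160.3, 132.1 and 136.6 in the scanner files and 115.2, 121.4, 118.8 and 114.2 in the table, with none at background on all arrays, and their part in the chemokine differences was not tested. The brighter probe of Cxcl11 lay between 6.50 and 6.68.

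Among the interferon-induced GTPases, which attack vacuoles that hold pathogens, 2 of 6 were at least 2-fold higher in the KO-labelled pair of the scanner files. Of all genes, 4.38% were. Gbp2 had log2 levels of 1.38, 0.50, -0.38 and -0.04 in the order KO-labelled challenged, WT-labelled challenged, KO-labelled control and WT-labelled control, and differed by 1.77 in the KO-labelled pair and 0.53 in the WT-labelled pair. Iigp1 had 0.15, -0.36, -1.05 and -0.83, with differences of 1.20 and 0.48 in the KO-labelled and WT-labelled pairs. Irgm1, Gbp3 and Igtp were higher by 0.94, 0.88 and 0.85 in the KO-labelled pair and by 0.46, 0.79 and 0.26 in the WT-labelled pair. Gbp4 ran the other way: its levels were -3.18 and -3.89 in the KO-labelled and WT-labelled challenged arrays, against -1.20 and -3.04 in the KO-labelled and WT-labelled controls, so it was 3.94-fold lower after challenge in the KO-labelled pair and 1.80-fold lower in the WT-labelled pair. The KO-labelled control was the high array. Thymocyte markers were high on that same array, with a median level of -2.93, -4.44, -0.23 and -4.07 over 12 genes in the order above and a summed linear level of 2.04, 1.13, 26.6 and 1.60. Against 4.35% of all genes, all 12 were at least 2-fold lower after challenge in the KO-labelled pair, and so were 14 of 16 T cell markers. The summed linear level of the 16 T cell markers was 8.20, 5.70, 41.8 and 7.74 in the same order. Their part in the Gbp4 difference was not tested. The same KO-labelled control is the baseline of every KO-labelled challenge difference in the scanner files. It also enters the comparison of control arrays and the difference between the pairs, and the part of these markers there was not tested either. The antigen-processing genes Tap1 (a peptide transporter), Psmb8 and Psmb9 (immunoproteasome subunits) differed by 0.24 or less in both pairs.

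**Figure D2:**
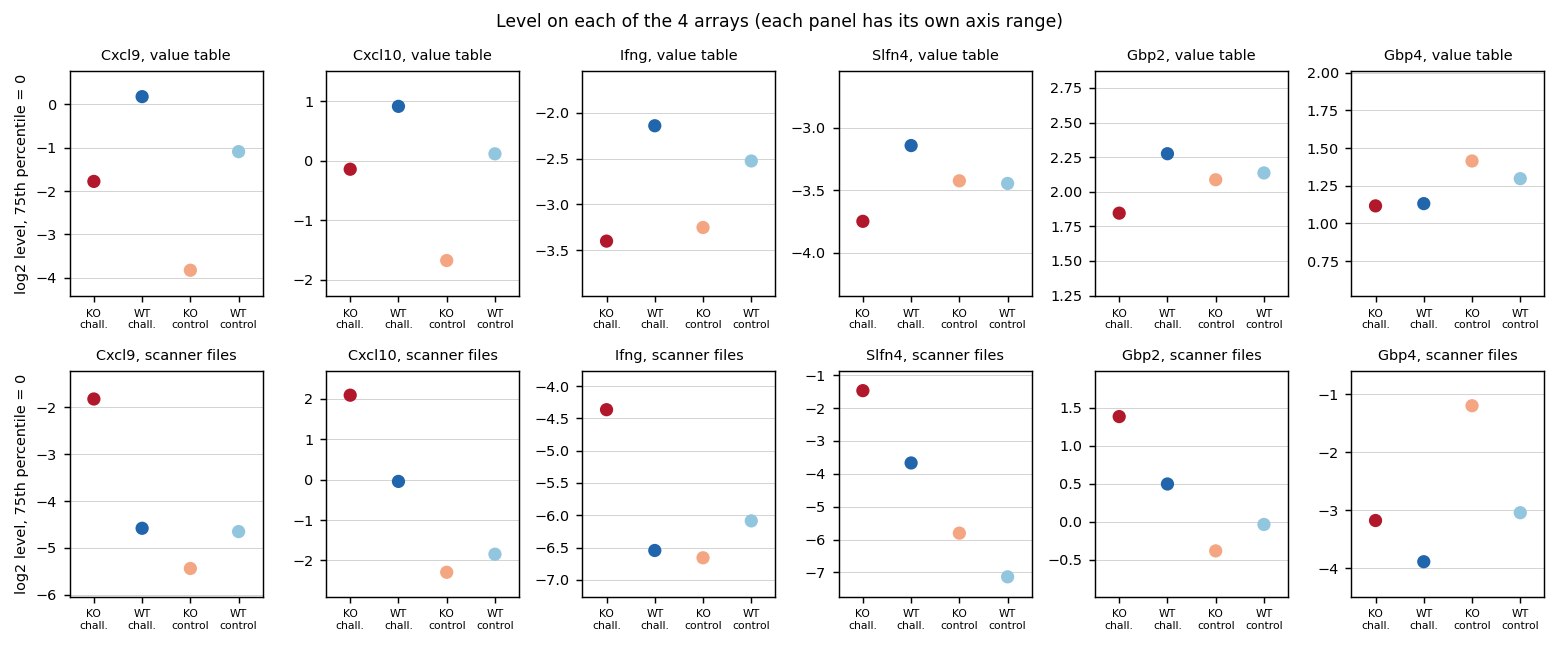
Log2 level (75th percentile of the array at 0) of Cxcl9, Cxcl10, interferon gamma itself (Ifng), Slfn4, Gbp2 and Gbp4 on each of the 4 arrays, in the value table (top) and the scanner files (bottom). Each point is 1 array of pooled RNA, and the panels have separate axis ranges. In the scanner files the KO-labelled challenged array is highest for all but Gbp4, where the KO-labelled control is; in the table the WT-labelled challenged array is highest for Cxcl9, Cxcl10, Ifng, Slfn4 and Gbp2.

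When the challenge effect was averaged over both genotype labels in an additive limma fit across all genes, with 1 residual degree of freedom, no member passed Benjamini-Hochberg adjustment in either source. The lowest adjusted p of a member was 0.57 in the table (Cxcl9) and 0.51 in the scanner files (Slfn4). No gene of 26010 in the table or 26309 in the scanner files passed either. At an unadjusted p under 0.05 there were 22 of the 39 members in the scanner files, against 9.56% of all genes, and 2 of 39 in the table, against 8.79%.

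Between the genotype labels, the table showed lower Cxcl9 and Cxcl10 in KO-labelled arrays under both treatments. Of the 39 members, 2 were at least 2-fold different on the challenged arrays, both lower in the KO-labelled one, against 5.8% of 25400 genes (3.69% lower). On the control arrays 3 were, 1 higher and 2 lower, against 5.14% of 25457 genes (1.91% higher, 3.23% lower). Cxcl9 was 3.88-fold lower in the KO-labelled challenged array and 6.67-fold lower in the KO-labelled control. Cxcl10 was 2.08-fold lower in the KO-labelled challenged array and 3.46-fold lower in the KO-labelled control. Both probes of Cxcl9 gave this order, with -3.35, -1.32, -5.28 and -2.69 for the probe at position 406 of the transcript in the order KO-labelled challenged, WT-labelled challenged, KO-labelled control and WT-labelled control. On the challenged arrays 12 of 13 interferon gamma targets lay below 0 (median -0.19), against 48.6% of all genes, and on the control arrays 9 of 13 (median -0.10), against 50.5%. Of the 26 type I genes, 13 lay below 0 on challenged arrays (median 0.05) and 11 on control arrays (median 0.03). The receptor of these chemokines, Cxcr3, had table levels of -0.94 and 0.06 in the KO-labelled and WT-labelled challenged arrays and -1.39 and -0.22 in the KO-labelled and WT-labelled controls. T cell markers were lower too: 15 of 16 lay below 0 under both treatments, with a median of -0.57 on challenged and -0.69 on control arrays. The summed level of the 16 was 17.1 and 23.6 in the KO-labelled and WT-labelled challenged arrays, and 14.6 and 20.9 in the KO-labelled and WT-labelled controls, with none at background on all arrays. The median level of 14 natural killer and cytotoxic cell markers was instead higher in KO-labelled arrays. It was -1.67 and -1.95 in the KO-labelled and WT-labelled challenged arrays, and -1.24 and -1.57 in the KO-labelled and WT-labelled controls. Their summed level was 19.7 and 16.5, and 27.7 and 20.4, on the same arrays. The part of either cell type in the chemokine differences was not tested. Slfn1 was lower in KO-labelled arrays by 0.73 after challenge and 0.71 in controls, under 2-fold in both.

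The scanner files gave the opposite order for these chemokines after challenge. Of the 39 members, 4 were at least 2-fold higher on the KO-labelled challenged array and none lower, against 8.14% of all genes in either direction and 4.19% higher. They were Cxcl9 (6.80-fold), Slfn4 (4.60-fold), Cxcl10 (4.38-fold) and Slfn1 (3.85-fold). Slfn1 lost this call with normexp background correction (log2 difference 0.77), and Cxcl9 was higher by 2.16 there in place of 2.77. The second Cxcl10 probe, above background on both challenged arrays, was 1.82-fold higher. The dimmer of the Cmpk2 probes was 2.65-fold higher, while the brighter differed by 0.28 on the log2 scale. On the control arrays 3 differed, against 5.97% of all genes (3.6% higher, 2.37% lower). Gbp4 was 3.59-fold and Slfn4 2.51-fold higher in the KO-labelled control (Slfn4 lost this call with normexp background correction, at 0.40 on the log2 scale), and Rsad2, with -1.07 in the KO-labelled and 0.03 in the WT-labelled control, was 2.14-fold lower. Cxcl9 and Cxcl10 differed by -0.79 and -0.45 there, both under 2-fold. Of the type I genes, 19 of 26 lay below 0 on challenged arrays (median -0.19, all genes 60.7%) and 21 of 26 on control arrays (median -0.23, all genes 54.1%). Of the interferon gamma targets, 2 of 13 lay below 0 on challenged arrays (median 0.19), the reverse of the table, and 8 of 13 on control arrays (median -0.18).

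**Figure D3:**
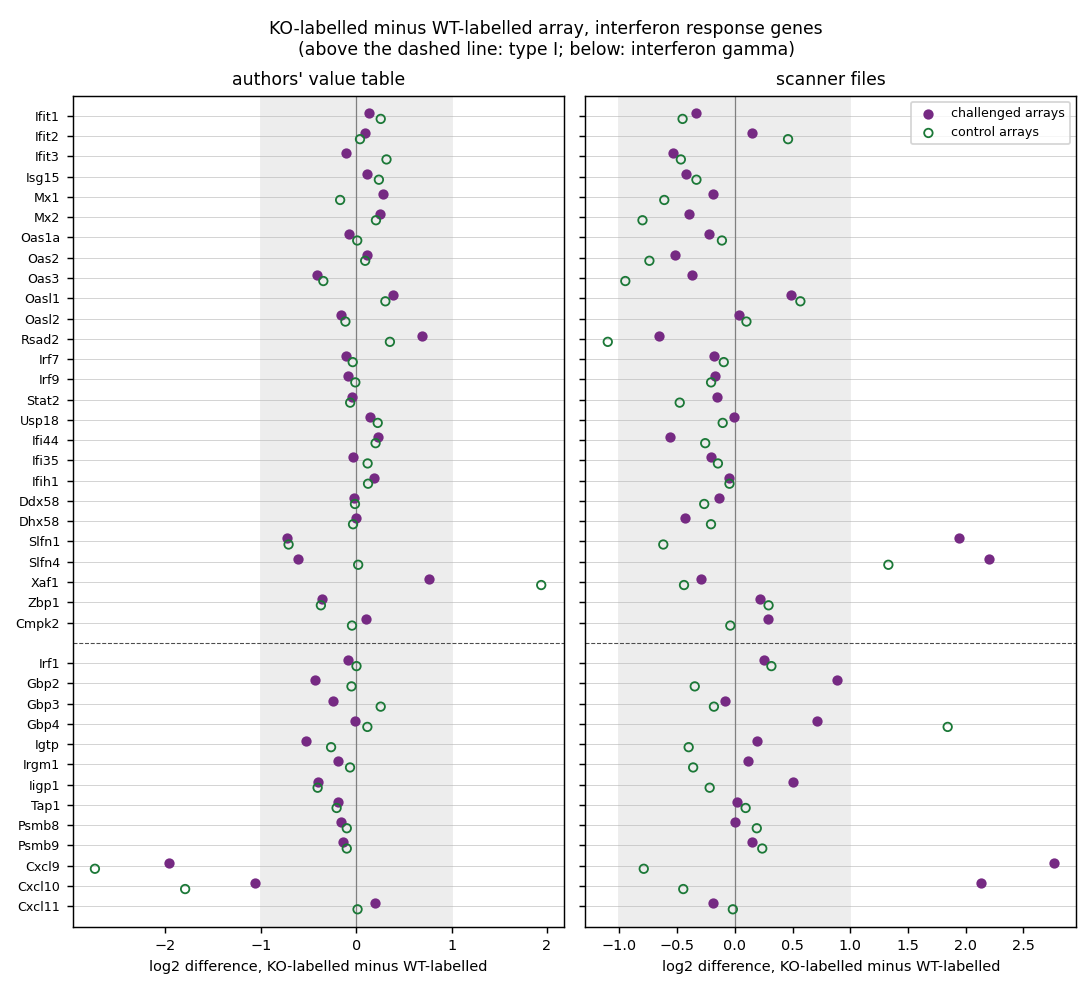
Log2 difference, KO-labelled minus WT-labelled array, of each of the 39 members in the authors' value table (left) and the scanner files (right). Filled purple points are challenged arrays, open green points control arrays, and the grey band marks differences under 2-fold; points are differences of 2 arrays without error bars. Cxcl9 and Cxcl10 lie left of the band in the table under both treatments and right of it on the challenged arrays of the scanner files.

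Xaf1 depended on the probe. The probe at position 2537 of the transcript (mm9, chr11:72127175-72127234, plus strand) had table levels of 2.04, 1.28, 2.38 and 0.44 and scanner levels of -0.97, -3.80, -0.17 and -4.16, in the order KO-labelled challenged, WT-labelled challenged, KO-labelled control and WT-labelled control. It was higher in the KO-labelled array under both treatments and in both sources. The probe at position 562 (chr11:72122169-72122228, plus strand) had -0.02, 0.52, 0.15 and 0.84 in the table and 1.05, 1.35, 0.51 and 0.95 in the scanner files, and was lower in the KO-labelled array each time. The brightest probe was the first of these in the table and the second in the scanner files, so the 3.84-fold higher Xaf1 of the KO-labelled control in the table rests on the probe at position 2537. With probes averaged per gene that difference was 0.62 on the log2 scale, under 2-fold. Among the 13 members with several probes, counting probes above background on an array compared, no other had probes that differed by 2-fold or more in their challenge difference in either pair. Those of Cxcl10 differed by that much in the difference between the pairs in the scanner files, where its second probe was at background on both control arrays. Both probes of Cxcl11 stayed within 2-fold across the 4 arrays of each source, as the plot of probes shows. Their levels were far apart, however. The probe at position 1457 read 1.99 to 2.40 in the table and 0.96 to 1.49 in the scanner files. The probe at position 1530 read 5.62 to 5.81 and 6.50 to 6.68. Which of them follows Cxcl11 was not tested.

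**Figure D4:**
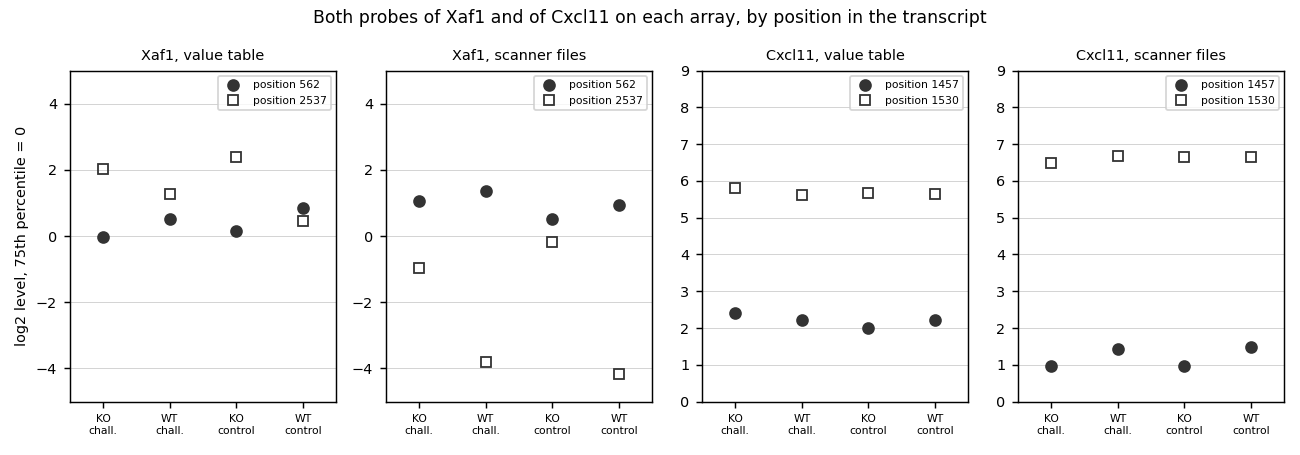
Log2 level (75th percentile of the array at 0) of both probes of Xaf1 and of Cxcl11 on each of the 4 arrays, in the value table and the scanner files. Filled circles are the probe nearer the start of the transcript and open squares the later one, and each point is 1 array. The later Xaf1 probe is higher in KO-labelled arrays in both sources, and the earlier one is lower.

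The averaged genotype-label effect gave no member past adjustment either. The lowest adjusted p from limma was 0.19 in the table (Slfn1) and 0.43 in the scanner files (Slfn4). At an unadjusted p under 0.05 there were 10 of 39 members in the table, against 13.8% of all genes, and 8 of 39 in the scanner files, against 10.7%. With a variance trend in the same fit, Cxcl9 (adjusted p = 0.005), Cxcl10 (0.02) and Slfn1 (0.044) passed in the table, where 4.03% of 26010 genes did. In the other alternatives run on the table the lowest adjusted p of a member was between 0.072 and 0.25.

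The challenge differences of the KO-labelled and WT-labelled pairs differed by at least 2-fold for 1 member in the table, against 6.02% of all genes, and for 5 in the scanner files, against 9.7%. Of these 5, Cxcl9 (3.55), Cxcl10 (2.58) and Gbp2 (1.23) had the higher log2 difference in the KO-labelled pair, and Gbp4 (-1.13) the lower one. Slfn1 was the fifth, but its KO-labelled control was not well above background, and with normexp background correction its value was 0.72, under 2-fold. Cxcl9 was 2.59 under that correction. The member in the table was Xaf1 (-1.18, and -0.51 with probes averaged per gene). With 1 array per group this difference has no test.

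The rest of the pathway was read from lists of 15 ligands, 7 receptors, 21 signalling genes and 9 inhibitors. Ifng in the scanner files had log2 levels of -4.37 (KO-labelled challenged), -6.55 (WT-labelled challenged), -6.66 (KO-labelled control) and -6.09 (WT-labelled control). The KO-labelled challenged array stood above the other 3, as it did for Cxcl9 and Cxcl10. Ifng was dim, since the lowest signal well above background was -7.82 to -7.47 over the 4 arrays. Its value with normexp background correction is not given here. In the table Ifng had -3.40, -2.14, -3.25 and -2.53, with both KO-labelled arrays below both WT-labelled ones. No other ligand reached 2-fold after challenge except Ifnb1, the fibroblast interferon, which in the table was above background on the WT-labelled challenged array alone and in the scanner files on none. Of the receptors, Ifngr2, the signalling chain for interferon gamma, was higher by 1.18 in the KO-labelled pair of the scanner files, and Cxcr3 was lower by 1.18 in the WT-labelled pair. Of 21 signalling genes, the DNA-sensing adaptor Sting1 (a difference of 1.45) and the Toll-like receptor adaptor Myd88 (1.46 in the challenged array, against 0.36 in the control) were at least 2-fold higher in the KO-labelled pair of the scanner files and none in the WT-labelled pair. Of all genes in the scanner files, 8.73% differed by 2-fold or more in the KO-labelled pair (4.38% higher). In the WT-labelled pair 4.41% did (2.39% higher), and lists this short cannot be told from such shares. Of 9 inhibitors, Socs3 and Socs1, which block Janus kinases, were higher by 3.10 and 1.05 in the KO-labelled pair and by 1.06 and 1.01 in the WT-labelled pair. In the table no receptor, signalling gene or inhibitor reached 2-fold after challenge, against 4.62% of all genes in the KO-labelled pair and 3.45% in the WT-labelled pair.

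Type I genes also stood at a higher level in the scanner data as a whole. Each member was taken by its brightest probe in the scanner files, with each source scaled to its own 75th percentile. That choice can favour the scanner files for the 13 members with several probes, and it was not made for the probes compared against. For the same probe, the mean level over 4 arrays was higher by 2-fold or more for 15 of 26 type I genes (median difference 1.18). It was so for none of 13 interferon gamma targets (median -0.65), against 24.8% of 31328 probes above background in both (median 0.37). Oas1a (2.95), Oas2 (2.55) and Ifi44 (2.55) led the type I genes, while Slfn1 (-2.18), Ifit2 (-1.32) and Slfn4 (-1.08) were lower. Gbp4 (-4.07), Cxcl9 (-2.50) and Gbp2 (-1.72) were the 3 interferon gamma targets lower by 2-fold or more on this measure, against 14.6% of probes.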

How the data were processed

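RNA from mouse lung was measured on 4 Agilent 1-colour arrays, 1 per group, grouped by the sample titles. Scanner output was intensity per spot from Feature Extraction 11.5.1.1, per the file headers (44397 spots, 39429 non-control probes), with 1 scan time on all 4 arrays and probe coordinates on mm9. The 75th percentile of intensity was 1808 to 1986, 79.2% to 81.9% of probes were well above background and 0 spots were saturated. The number of arrays limits the precision. The authors also deposited a value table, a linear signal for each probe with its 75th percentile at about 1.00 on each array. The sources used here do not say how it was made.

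Intensity was scaled to each array's 75th percentile and taken to log2, and the deposited signal was taken to log2. Spots of a probe were averaged, leaving out 20 uneven spots. The design had assumed that the value table would be an alternative version of the scanner values. Its columns did not follow them, so each source was analysed apart. Background was the scanner's own call, or, for the table, a signal above 5 times the median negative control. Names came from RefSeq through accessions for 28283 probes, symbols for 2199 and synonyms for 174, and 8721 kept the file's name. Genes were named by membership, with values on every array for members at 2-fold or more in any contrast and otherwise as examples. The members and lists were chosen with earlier results of these data known. Averaged effects were fitted with limma 3.58.1 in R 4.3.3 and adjusted over all genes, and the code was tested on simulated data. Alternatives were quantile normalization, scaling to the median of detected probes, normexp (offset 50), other filters on dim probes, the mean of a gene's probes, a 1.5-fold rule, a spot error rule, and limma with a variance trend or robust.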

Additional observations from a re-analysis of the deposited data

Results flagged for a closer look

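For Xaf1 in the value table, the challenge difference was -0.34 in the KO-labelled pair and 0.84 in the WT-labelled pair, opposite in sign, a gap of -1.18 on the log2 scale. This difference was not tested, since each group had 1 array, and it rests on the probe at position 2537.

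For Ifng in the scanner files, the challenge difference was 2.29 in the KO-labelled pair and -0.46 in the WT-labelled pair, a gap of 2.75. This difference was not tested either, and Ifng was dim in the scanner files. In the table the same gap was -0.53.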

How the results depend on the processing

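Leaving out an array would leave a group empty. No paired analysis was possible because each group had 1 array and the labels carry no replicate numbers. Of 100 recomputed counts of members, 91 lay within 1.5 times the count reported and 9 did not. In the table, the 1.5-fold rule gave 3 members in place of 1 for the WT-labelled challenge pair, 6 in place of 2 between labels after challenge and 4 in place of 1 for the difference of responses. In the scanner files it gave 21 in place of 11 for the KO-labelled challenge pair, 15 in place of 3 for the WT-labelled pair, 7 in place of 4 between labels after challenge, 9 in place of 3 between labels in controls, and 8 in place of 5 for the difference of responses. The share of all genes at 1.5-fold is not given here. The 1.5-fold counts therefore show only how the rule changes the number of members called, not an excess over all genes. For the genotype-label effect in the table, the variance trend gave 3 members in place of 0. The normexp correction ended the 2-fold calls of Slfn1, of Oas3 in the KO-labelled challenge pair and of Slfn4 between control labels, though the counts stayed within 1.5 times. No member called changed sign in any of 201 recomputed differences. Those under the other filters, and the probe means of members with 1 probe, repeat the same values and could not change sign. Medians of the type I and interferon gamma lists were recomputed under alternatives added after seeing the data. Of 90, 89 moved by less than the spot error and 1 by more: the interferon gamma median for the difference of responses in the scanner files was 0.50 when probes were averaged per gene and 0.09 with the brightest. That error belongs to 1 gene in the scanner files (median 0.20 for a difference of 2 arrays). With the main processing every table median was smaller in size, so for the table this comparison cannot show stability. With probes averaged per gene, the table's interferon gamma median between labels after challenge was -0.25. The table's interferon gamma median in the WT-labelled challenge pair was 0.06, and 0.01 with probes averaged. No scaling moved the median of all genes by over 0.1. Under the filter on all 4 arrays, Slfn1 drops out of the scanner counts, and 271 genes of the table in place of 0 passed limma for the genotype-label effect, none of them members (lowest adjusted p of a member 0.072, Cxcl9). The signal of Slfn1 in the KO-labelled control of the scanner files allows only a bound.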
